A study of Bos taurus with 9 samples.

Results

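The genes described here encode proteins of the apical membrane and brush border of epithelial cells, namely MYO1A, VIL1, EZR, ESPN, CDHR2, CDHR5, ANPEP, LRP2, PDZK1 and MAL, which are 10 of the 20679 genes listed in the deposited tables. They were taken by symbol, and they had been selected on expression values of the same libraries, whose earlier results were known, so their values are given as a description. Bovine uterine gland fragments, labelled as epithelial cells, were embedded in Matrigel, a basement membrane gel, and cultured for 5 days in a serum-free medium with albumin, ascorbic acid, transferrin, selenite and insulin, which all groups shared. Without epidermal growth factor (EGF) the fragments formed cysts (CYST group), and with EGF they formed tubular uterine gland-like (UG-LIKE) structures, either in Matrigel alone (MAT group) or in Matrigel with type I collagen (MAT+COL group). RNA-seq covered 3 libraries per group, and the replicate numbers 1 to 3 recur in every group. The uteri came from an abattoir, each library was made from picked fragments, and the labels give neither the age nor the strain of the animals. Total counts ranged from 6568968 in MAT replicate 1 to 17948600 in MAT+COL replicate 2.

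The apical surface is the side of an epithelial cell that faces the lumen. In a brush border it is packed with microvilli, each held up by a bundle of actin filaments. Villin and espin bundle these filaments, ezrin ties them to the membrane, and myosin 1A forms bridges between the bundle and the membrane around it. Cadherins at the tips link neighbouring microvilli, and the membrane carries peptidases, endocytic receptors and transporters that are anchored by PDZ scaffolds. Brush borders are best known from the intestine and the kidney tubule, and glands of the endometrium carry microvilli towards the lumen into which they secrete.

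The epithelial label was checked against marker genes. KRT8, KRT18, KRT19, EPCAM, CDH1 and CLDN4 had counts in every group, and their summed level was 17667 to 19091 TPM in CYST, 28233 to 43970 in MAT and 29106 to 39217 in MAT+COL. TPM is a transcript level scaled by gene length and library size. Markers of other cells were also present. The summed level of 8 stromal markers was 2225 to 4798 TPM in CYST, 1191 to 3742 in MAT and 2197 to 4249 in MAT+COL, and that of 4 smooth muscle markers was 140.5 to 179.4, 37.98 to 83.51 and 70.16 to 89.26 TPM. Markers of endothelium (4 genes), leukocytes (5 genes) and ciliated cells (4 genes) summed to at most 26.1, 48.3 and 24.8 TPM in any library, and CD3E was at 0 counts in CYST. The epithelial sum was thus higher, and the smooth muscle sum lower, in each library with EGF than in each CYST library. The log2 fold change (Log2FC) of MAT against CYST was positive for 5 of the 6 epithelial markers and negative for CLDN4 (-0.31). It was negative for 3 of the 4 smooth muscle markers, with MYH11 at 0.07, and for 7 of the 8 stromal markers, with VIM at 1.07. KRT8 and KRT19 had the highest means of the epithelial markers, at 15490 and 17274 TPM in MAT. The part that these differences in markers played in the values below was not tested. In such bulk libraries, fewer cells of a type and less RNA per cell cannot be told apart.

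The question of the comparison between MAT and CYST is which transcripts differ between UG-LIKE structures formed with EGF and cysts formed without it. The 10 genes did not move as a group. MYO1A and MAL were higher in MAT, ANPEP and LRP2 were lower, PDZK1 was lower without overlap, and CDHR2, VIL1, EZR and ESPN overlapped between the groups. PDZK1 and CDHR2 passed the test in the blocked fit and not without the block. CDHR5 was at the limit of detection. By edgeR's quasi-likelihood test over all genes, the adjusted p was under 0.05 for 4 of the 9 that could be tested, against 1.79% of the 12074 genes tested, a count that the choice of the genes leaves without weight. In the fit with a block for the replicate number it was under 0.05 for 6 of 9, against 10.6% of all genes. Without the block, the count fell to 0 when CYST replicate 1, CYST replicate 2 or MAT replicate 1 was left out, and to 1 without MAT replicate 2. The share of all genes called was not counted for this or any later fit without 1 library. The groups did not overlap in TPM for 5 of the 9, against 23.7% of the genes tested. The choice of the genes leaves all such counts of them, here and below, without weight.

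**Figure D1:**
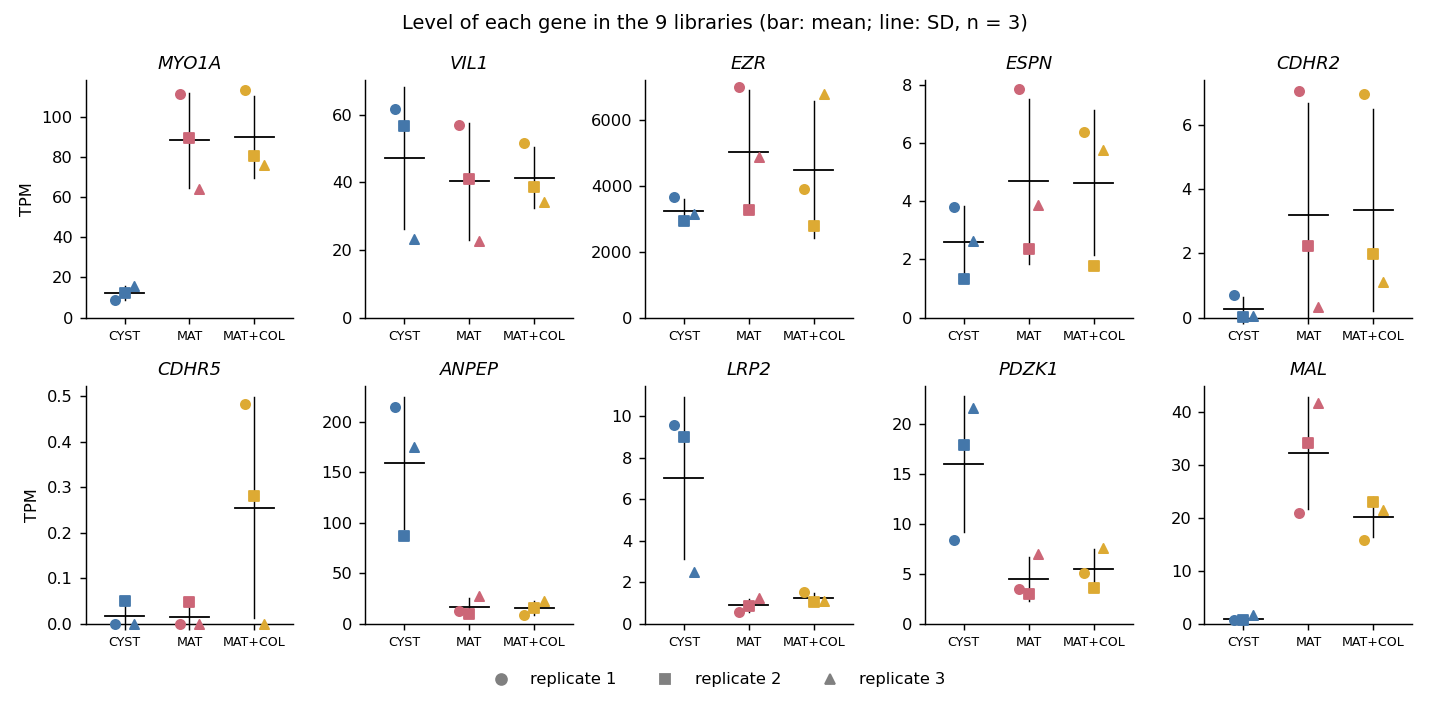
TPM of each gene (vertical axes, linear, each with its own scale) in the CYST, MAT and MAT+COL libraries (horizontal axes), with symbols for the replicate number, a horizontal bar for the mean and a vertical line for the SD (n = 3), which stops at 0. The 6 libraries with EGF lie above the CYST libraries for MYO1A and MAL and below them for ANPEP, LRP2 and PDZK1, while those of VIL1, EZR and ESPN overlap with them.

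Among the genes of the microvillus core, MYO1A, the class I myosin of the brush border (ENSBTAG00000014655, chromosome 5 from 56380101 to 56406107 of ARS-UCD2.0), had the clearest difference. Its level in CYST replicates 1, 2 and 3 was 8.90, 12.4 and 15.7 TPM. In MAT replicates 1, 2 and 3 it was 111.3, 89.6 and 64.1 TPM. The lowest MAT library was therefore well above the highest CYST library, and the order of the numbers was reversed between the groups. The Log2FC of MYO1A was 2.79 (standard error, SE, 0.33), or 6.90-fold. Within same-numbered libraries, the difference in log2 CPM, the count scaled to library size, of MYO1A was 3.66, 2.95 and 1.85.

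VIL1 encodes villin, which bundles and severs actin filaments (ENSBTAG00000018543, chromosome 2 from 106422813 to 106448764). CYST replicates 1, 2 and 3 had 61.5, 56.7 and 23.2 TPM of VIL1, and the MAT replicates had 57.1, 41.0 and 22.6 TPM. Replicate 3 was the lowest of both groups, and the groups overlapped over nearly their whole range. The Log2FC of VIL1 was -0.21 (SE 0.38), with an interval of 1.96 SE to either side, from -0.94 to 0.53. USP37, on the opposite strand, overlaps the gene model of VIL1, had at most 538 counts in a library against up to 2066 for VIL1, and had a Log2FC of -0.31 (SE 0.36). The strand setting of the counting is not given in the sources used here, so reads of such a pair cannot be told apart.

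EZR, the gene for ezrin (ENSBTAG00000010347, chromosome 9 from 95156279 to 95201305), was by far the most abundant of the 10. With 3653, 2949 and 3137 TPM in CYST and 7003, 3265 and 4875 TPM in MAT, EZR ranked between 9 and 29 among all genes of a library over the 9 libraries. Each MAT library of EZR was higher than its same-numbered CYST library, but MAT replicate 2 was below CYST replicate 1. The Log2FC of EZR was 0.62 (SE 0.29). ESPN, the gene for the bundling protein espin (ENSBTAG00000006515, chromosome 16 from 46909357 to 46943795), had 3.79, 1.32 and 2.64 TPM in CYST and 7.85, 2.35 and 3.86 TPM in MAT. Replicate 2 of ESPN was the lowest in both groups. Its Log2FC was 0.82 (SE 0.56), and TNFRSF25, which overlaps ESPN on the opposite strand, had at most 21 counts in a library against 54 to 271 for ESPN.

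The cadherins of the microvillus tips, CDHR2 and CDHR5, which bind each other across neighbouring microvilli, were the least abundant of the genes in cysts. CDHR2 (ENSBTAG00000025340, chromosome 7 from 38024566 to 38069443) had 13, 1 and 1 counts in CYST replicates 1, 2 and 3, or 0.706, 0.028 and 0.042 TPM. In MAT it had 101, 85 and 9 counts, or 7.05, 2.22 and 0.314 TPM. Each MAT library of CDHR2 was higher than the CYST library of the same number, yet MAT replicate 3 was below CYST replicate 1. The Log2FC of CDHR2 was 3.72 (SE 1.38), and 4.04 (SE 0.79) with the replicate block, the fit in which CDHR2 joined the genes with an adjusted p under 0.05. Without the block, leaving out 1 library moved the value of CDHR2 between 2.44 (without MAT replicate 1) and 6.32 (without CYST replicate 1), with 3.12 without CYST replicate 2. CDHR5 (ENSBTAG00000047914, chromosome 29 from 50687389 to 50694307) had 0, 1 and 0 counts in CYST and 0, 1 and 0 counts in MAT, within the 3 counts that a count of 0 allows, and was not tested.

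Among the enzymes and receptors of the membrane, ANPEP and LRP2 were lower in MAT. ANPEP encodes aminopeptidase N, which trims amino acids from the ends of peptides at the cell surface (ENSBTAG00000016881, chromosome 21 from 21195693 to 21212697). It had 215.1, 86.8 and 175.6 TPM in CYST replicates 1, 2 and 3 and 12.2, 9.87 and 27.1 TPM in MAT. The lowest CYST library of ANPEP was above the highest MAT library, and the gap was present in each of the 3 same-numbered pairs. The Log2FC of ANPEP was -3.30 (SE 0.52), or 9.83-fold lower in MAT, and -3.92 without MAT replicate 3.

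LRP2 encodes megalin, a large endocytic receptor of absorptive epithelia (ENSBTAG00000004555, chromosome 2 from 26854305 to 27031114). CYST replicates 1 and 2 had 9.57 and 9.0005 TPM of LRP2 and CYST replicate 3 had 2.51 TPM. The MAT replicates had 0.584, 0.875 and 1.22 TPM. All MAT libraries were below all CYST libraries, and replicate 3 was both the lowest CYST and the highest MAT library of LRP2. The Log2FC of LRP2 was -2.90 (SE 0.49), or 7.46-fold lower, with differences in log2 CPM of -3.95, -3.22 and -1.20 within the numbers. LRP2 was under 1 TPM in MAT replicates 1 and 2, and MAL in CYST replicates 1 and 2. Both therefore missed the criteria for DEGs as applied here. Those criteria follow the study and ask for a TPM above 1, an adjusted p under 0.05 and a Log2FC above 1 or below -1. Here the TPM was asked of each of the 6 libraries, and the adjusted p was that of edgeR. The study's own list of DEGs was not compared. MYO1A and ANPEP met the criteria as applied here, as did 1.45% of the genes tested, and 6.01% in the blocked fit.

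PDZK1 encodes a scaffold with PDZ domains that holds transporters at the brush border (ENSBTAG00000005810, chromosome 3 from 21684181 to 21694440). It had 8.40, 17.9 and 21.7 TPM in CYST and 3.48, 3.00 and 6.96 TPM in MAT, from 10 to 128 counts per library. The groups of PDZK1 did not overlap, although CYST replicate 1 was close to MAT replicate 3. The Log2FC of PDZK1 was -1.86 (SE 0.59), and -1.87 (SE 0.46) with the replicate block, the fit in which PDZK1 joined the genes with an adjusted p under 0.05 and the DEGs. GPR89A lies on the opposite strand over part of PDZK1, had up to 954 counts in a library, and had a Log2FC of -0.21 (SE 0.22). The gene model of PDZK1 in the files spans 10260 bp, against 47637 bp in RefSeq on the same assembly.

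MAL, a tetraspan membrane protein that takes part in the sorting of proteins to the apical membrane (ENSBTAG00000034586, chromosome 11 from 1832494 to 1873328), had the largest Log2FC of the 10. CYST replicates 1, 2 and 3 had 4, 8 and 13 counts of MAL, or 0.630, 0.649 and 1.59 TPM. The MAT replicates had 103, 451 and 412 counts, or 20.9, 34.2 and 41.7 TPM. MAL was thus near the limit of detection in cysts and readily counted in every MAT library. The Log2FC of MAL was 5.03 (SE 0.57), or 32.6-fold, and 5.73 without CYST replicate 3. The related genes MAL2 and MALL were far more abundant than MAL in cysts, at 218.9 ± 84.6 and 121.0 ± 119 TPM (SD, n = 3), and their Log2FC was 0.29 (SE 0.31) and 0.93 (SE 0.68).

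**Figure D2:**
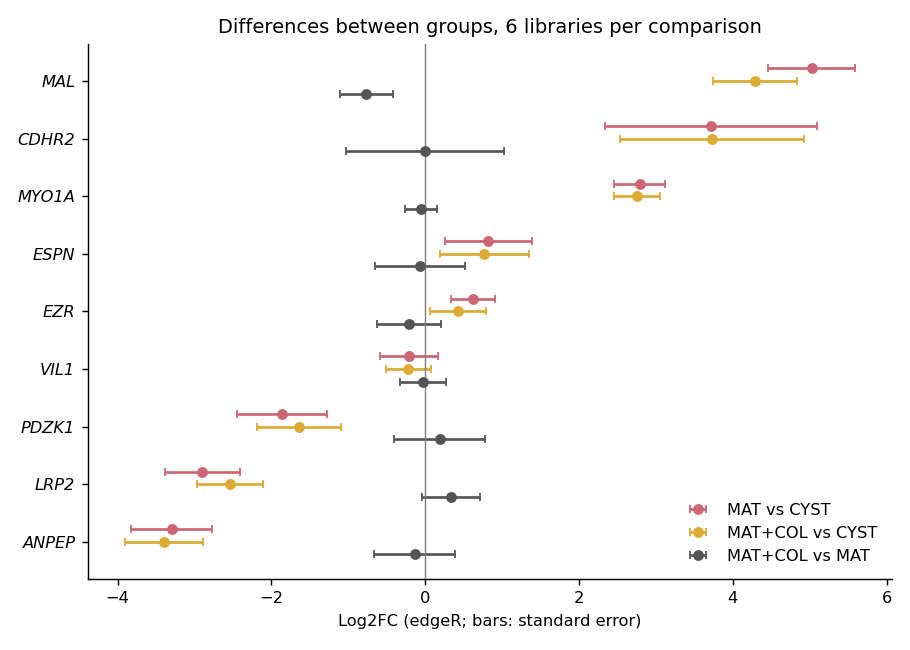
Log2FC with its SE (horizontal axis, edgeR without the replicate block, 6 libraries per comparison) for the 9 genes tested, in MAT against CYST, MAT+COL against CYST and MAT+COL against MAT. Both comparisons with cysts run from MAL, at 5.03 and 4.29, to ANPEP, at -3.30 and -3.40, while the values for collagen lie between -0.77 and 0.34.

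The comparison of MAT+COL with CYST used the same CYST libraries as that of MAT with CYST, so the values are set side by side and one is not a check of the other. MYO1A was at 113.2, 80.3 and 75.9 TPM in MAT+COL replicates 1, 2 and 3, a Log2FC of 2.75 (SE 0.30) against CYST. MAL was at 15.8, 23.0 and 21.5 TPM, a Log2FC of 4.29 (SE 0.54) or 19.6-fold, and 5.00 without CYST replicate 3. ANPEP was at 8.711, 15.97 and 22.44 TPM, a Log2FC of -3.40 (SE 0.51) or 10.6-fold lower. These 3 genes had no overlap between MAT+COL and CYST.

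The MAT+COL libraries had 1.51, 1.06 and 1.09 TPM of LRP2, whose Log2FC against CYST was -2.54 (SE 0.43). PDZK1 was at 5.13, 3.53 and 7.63 TPM, a Log2FC of -1.64 (SE 0.55). CDHR2 was at 6.95, 1.97 and 1.11 TPM, a Log2FC of 3.73 (SE 1.19), which was 6.34 without CYST replicate 1, 3.10 without CYST replicate 2 and 2.68 without MAT+COL replicate 1. All MAT+COL libraries of CDHR2 were above all CYST libraries, which the MAT libraries were not, and those of LRP2 and PDZK1 were below. The edgeR adjusted p was under 0.05 for 4 of the 9, against 1.49% of the 12509 genes tested, and for 5 of 9 with the replicate block (CDHR2 being added), against 5.26%. Without replicate 1 or 2 of either group, the unblocked count was 0. The groups did not overlap in TPM for 6 of the 9, against 24.7% of the genes tested. MYO1A, ANPEP and LRP2 met the criteria for DEGs in both fits, as did 1.13% of the genes tested without the block and 3.46% with it. These counts too are without weight, since the genes were selected on these libraries and the CYST libraries are shared.

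VIL1 in MAT+COL had 51.6, 38.5 and 34.1 TPM and a Log2FC of -0.22 (SE 0.29) against CYST, EZR had 3903, 2791 and 6807 TPM and a Log2FC of 0.42 (SE 0.36), and ESPN had 6.39, 1.78 and 5.75 TPM and a Log2FC of 0.77 (SE 0.58). These 3 genes overlapped between the groups. For EZR the value rested on MAT+COL replicate 3, without which the Log2FC was -0.083. CDHR5 had 10, 6 and 0 counts in MAT+COL, or 0.484, 0.281 and 0 TPM, so that it was seen above 3 counts in 2 libraries with collagen and in no other library.

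Between MAT+COL and MAT, which differ in type I collagen with EGF in both, none of the 10 genes separated the groups. The edgeR test gave 0 of 9 genes with an adjusted p under 0.05, against 0% of the 12470 genes tested, and 0 of 9 at an unadjusted p under 0.05, while DESeq2 also called 0, against 0% of all genes. With the replicate block 1 of the 9, MAL, had an unadjusted p under 0.05. The shares of all genes at an unadjusted p under 0.05 were not counted. The groups did not overlap for 0 of 9, against 3.57% of the genes tested. The Log2FC of MAL was -0.77 (SE 0.34), with an interval from -1.44 to -0.09. This interval leaves out 0, although the unadjusted p of MAL was not under 0.05 in the edgeR test without the block. The intervals given here are narrower than that test allows, so that of MAL does not show a difference with collagen. MAL was lower with collagen in each of the 3 same-numbered pairs, with differences of -0.53, -0.60 and -1.02 in log2 CPM. For MYO1A the Log2FC was -0.05, with an interval from -0.46 to 0.36, and for VIL1 it was -0.03, from -0.61 to 0.55. The intervals of ANPEP (from -1.18 to 0.90), PDZK1 (from -0.98 to 1.35), ESPN (from -1.22 to 1.07) and CDHR2 (from -2.02 to 2.02) were wider.

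On the TPM scale, the order of the genes differed between cysts and UG-LIKE structures. In CYST it ran from EZR (3246 ± 364.5, SD, n = 3) through ANPEP (159.2 ± 65.7), VIL1 (47.1 ± 20.9), PDZK1 (15.97 ± 6.83), MYO1A (12.3 ± 3.39), LRP2 (7.03 ± 3.93), ESPN (2.58 ± 1.24), MAL (0.956 ± 0.548) and CDHR2 (0.259 ± 0.387) to CDHR5 (0.017 ± 0.029). The steps from EZR to ANPEP, from ANPEP to VIL1 and from VIL1 to PDZK1 were larger than the spread between libraries, and all later neighbours in CYST overlapped. In CPM, which is not scaled by gene length, the CYST mean of PDZK1 was 7.21, against 23.1 for MYO1A and 47.4 for LRP2. The TPM of PDZK1 rests on a gene model with a shorter span than in RefSeq, and the effect on its place was not tested. In MAT, EZR (5048 ± 1875) was followed by MYO1A (88.35 ± 23.6), VIL1 (40.2 ± 17.2), MAL (32.2 ± 10.6), ANPEP (16.4 ± 9.37), ESPN (4.69 ± 2.84), PDZK1 (4.48 ± 2.16), CDHR2 (3.20 ± 3.47), LRP2 (0.893 ± 0.319) and CDHR5 (0.016 ± 0.027). VIL1, MAL and ANPEP overlapped step by step in MAT, as did ESPN, PDZK1, CDHR2 and LRP2. In MAT+COL the order was that of MAT with PDZK1 (5.43 ± 2.07) before ESPN (4.64 ± 2.495), and EZR (4500 ± 2073), MYO1A (89.8 ± 20.4), VIL1 (41.37 ± 9.095) and MAL (20.1 ± 3.76) did not overlap with one another.

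A ratio of 2 genes within a library does not depend on how that library was scaled. MYO1A per VIL1, in TPM, was 0.145, 0.219 and 0.676 in CYST replicates 1, 2 and 3, and 1.95, 2.18 and 2.84 in MAT. In MAT+COL it was 2.20, 2.09 and 2.23. Villin transcripts thus exceeded those of MYO1A in every CYST library, and MYO1A exceeded VIL1 in every library with EGF.

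ANPEP per VIL1 was 3.50, 1.53 and 7.58 in CYST, 0.214, 0.240 and 1.20 in MAT, and 0.169, 0.415 and 0.658 in MAT+COL. ANPEP was above VIL1 in every CYST library and below it in 5 of the 6 libraries with EGF, MAT replicate 3 being the exception. Of the 3 ratios computed, ANPEP per MYO1A had the widest contrast, at 24.2, 6.997 and 11.2 in CYST, 0.110, 0.110 and 0.423 in MAT and 0.077, 0.199 and 0.296 in MAT+COL.

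**Figure D3:**
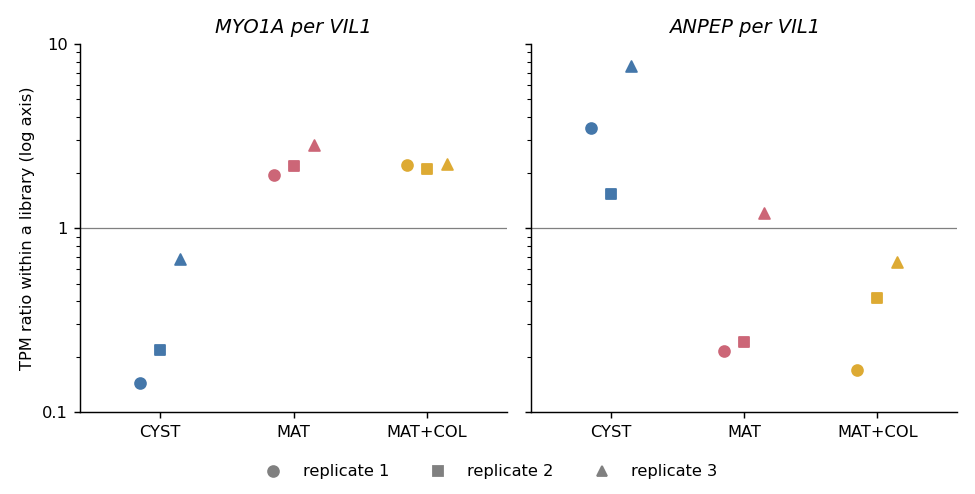
TPM of MYO1A and of ANPEP divided by that of VIL1 in the same library (vertical axis, log scale) for the CYST, MAT and MAT+COL libraries, with symbols for the replicate number and a grey line at 1. MYO1A per VIL1 is at most 0.676 in CYST and at least 1.95 with EGF, and ANPEP per VIL1 is at least 1.53 in CYST and at most 1.20 with EGF.

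The genes also differed in how far they followed the group and how far the replicate number. As shares of the sum of squares of log2 CPM over the 9 libraries, the group took 95.0% for MAL, 94.5% for MYO1A, 85.2% for ANPEP and 84.7% for LRP2. The number took 78.9% for VIL1, 75.0% for ESPN and 49.1% for EZR, for which the group took 3.23%, 19.9% and 23.9%. PDZK1 and CDHR2 held both, with 64.3% and 58.6% for the group and 28.5% and 35.6% for the number. The medians over all genes were 29.9% for the group and 32.0% for the number.

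The pattern by number was the same in each group for several genes. VIL1 was highest in replicate 1 and lowest in replicate 3 of all 3 groups, PDZK1 was highest in replicate 3, CDHR2 in replicate 1, and EZR and ESPN were lowest in replicate 2. For MYO1A, replicate 1 was the lowest CYST library and the highest library of both groups with EGF.

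**Figure D4:**
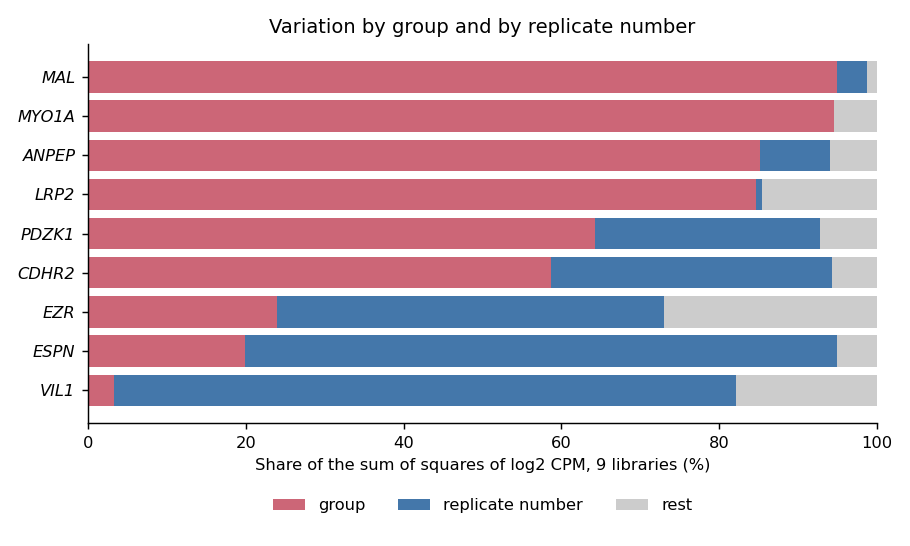
Share of the sum of squares of log2 CPM over the 9 libraries (horizontal axis, percent) that falls to the group, to the replicate number and to the rest, for the 9 genes tested. The group share runs from 95.0% for MAL to 3.23% for VIL1, where the number takes 78.9%.

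Over the 9 libraries and 12858 genes, the genes whose log2 CPM was most like that of EZR, the most abundant of the 10, were MFSD10 (Pearson's r = 0.969), TMEM268 (0.964) and TP53INP2 (0.964). Those most like MAL were C1GALT1 (0.987), CYB5R1 (0.986) and LY96 (0.984). These are descriptions, since the libraries share groups, numbers and depth, and a gene that differs between cysts and both EGF groups is correlated with MAL by that difference alone.

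Other genes of the apical domain were taken from 8 lists by function, with 96 symbols of which 90 were found. The lists were written by hand with earlier results of these libraries known. Their values were mostly small and positive. In MAT against CYST, the Log2FC was positive for 56 of the 73 genes tested and negative for 17, and its median was 0.42 against 0.01 over all genes tested. With edgeR, 1 gene rose and 1 fell, against 1.79% of all genes tested. The gene that rose was LGALS4, which encodes galectin-4, a lectin that takes part in apical delivery. LGALS4 was at 76.4, 115.6 and 89.6 TPM in CYST and 380.5, 344.9 and 271.3 TPM in MAT, a Log2FC of 1.81 (SE 0.22, edgeR adjusted p = 0.0216). The gene that fell was MME, which encodes neprilysin, a peptidase of the cell surface like ANPEP. MME was at 103.7, 85.8 and 30.4 TPM in CYST and 9.73, 15.2 and 18.4 TPM in MAT, a Log2FC of -2.29 (SE 0.41, edgeR adjusted p = 0.045). With the replicate block, 10 of the 73 rose and 3 fell, against 10.6% of all genes tested, and DESeq2 called 12 of the listed genes, against 9.9% of the genes to which it gave an adjusted p. Without CYST replicate 3 edgeR called 6 of the listed genes, and without replicate 1 or 2 of either group it called 0.

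Beside VIL1, ESPN and MYO1A, 18 genes of the microvillus actin core and its regulators were tested, of which 16 were on the positive side, at a median Log2FC of 0.73. None had an adjusted p under 0.05 in edgeR without the block, while 7 had an unadjusted p under 0.05, DESeq2 called 3, and the block called 4, namely EPS8, EPS8L3, VILL and BAIAP2L1, all higher in MAT. Over all genes these shares were 9.9% for DESeq2 and 10.6% with the block. The share of all genes with an unadjusted p under 0.05 was not counted, so the unadjusted counts here and below have no comparison. EPS8L3, of the EPS8 family of actin regulators, was at 27.0, 32.2 and 18.2 TPM in CYST and 78.2, 71.9 and 37.5 TPM in MAT, a Log2FC of 1.28 (SE 0.29). In MAT+COL EPS8L3 was at 103.9, 55.85 and 57.99 TPM, which overlapped with MAT. Its Log2FC in MAT+COL against CYST was 1.43 (SE 0.26, edgeR adjusted p = 0.0473). MYO1E, another class I myosin, had a Log2FC of 1.16 (SE 0.39) and EPS8L2 of 1.15 (SE 0.97) in MAT against CYST. PLS1, the gene for the bundling protein plastin 1, was at 716.1 ± 106.9 TPM in CYST and 740.8 ± 217.6 TPM in MAT (SD, n = 3), well above VIL1 and ESPN.

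For the ERM proteins, to which ezrin belongs, and their partners, 7 genes were tested and none had an adjusted p under 0.05 in edgeR without the block, 2 had an unadjusted p under 0.05 and DESeq2 called 2. MSN (moesin) was at 303.8 ± 31.7 TPM in CYST and 281.2 ± 5.90 TPM in MAT, and RDX (radixin) at 130.2 ± 19.3 and 164.2 ± 11.5 TPM (SD, n = 3), so that EZR exceeded both in every group. SLK, a kinase that phosphorylates ERM proteins, had a Log2FC of 1.11 without the block (SE 0.24, edgeR adjusted p = 0.0619) and of 1.10 with it (SE 0.23, edgeR adjusted p = 0.0302). PODXL, the gene for the apical sialomucin podocalyxin, had a Log2FC of -1.62 without the block (SE 0.51, edgeR adjusted p = 0.129) and of -1.59 with it (SE 0.40, edgeR adjusted p = 0.0449). STK10, the other ERM kinase listed, had a Log2FC of 0.57 (SE 0.36).

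The partners of CDHR2 and CDHR5 in the intermicrovillar adhesion complex were present apart from the myosin. USH1C, the gene for the scaffold harmonin, was at 11.1, 4.84 and 9.51 TPM in CYST and 28.7, 26.3 and 13.1 TPM in MAT, without overlap, and had a Log2FC of 1.37 (SE 0.44, edgeR adjusted p = 0.134, or 0.0771 in the blocked fit). ANKS4B and CALML4 had a Log2FC of 0.42 (SE 0.51) and 0.18 (SE 0.32). MYO7B, the motor of the complex, had at most 1 count in any of the 9 libraries. Of the 3 genes tested, 0 were called by edgeR with or without the block, 1 had an unadjusted p under 0.05 and DESeq2 called 1.

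Of 14 surface hydrolases beside ANPEP, 6 were tested in MAT against CYST, with 3 positive and 3 negative values. MME fell, as given above, and edgeR without the block called no other. With the block 1 rose and 1 fell, against 10.6% of all genes tested, and DESeq2 called 1, against 9.9%. MEP1B, a subunit of the metalloprotease meprin, had the largest negative value (Log2FC -2.66, SE 0.89, edgeR adjusted p = 0.145, or 0.062 in the blocked fit), at 72.9 ± 74.0 TPM in CYST and 12.5 ± 9.17 TPM in MAT (SD, n = 3). NT5E, an ectoenzyme that makes adenosine, had a Log2FC of 1.93 (SE 1.32, edgeR adjusted p = 0.454, or 0.0388 in the blocked fit). ENPEP, MEP1A, ALPI, SI and LCT, which include the digestive enzymes of the intestinal brush border, had 0 counts in each of the 9 libraries.

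The endocytic partners of LRP2 gave a mixed picture, with 6 positive and 3 negative values among 9 genes tested and a range from -2.38 to 0.64. None of the 9 had an adjusted p under 0.05 in edgeR without the block, 3 had an unadjusted p under 0.05 and DESeq2 called 1. DAB2, an adaptor that binds the tail of megalin, was at 8.69, 8.83 and 6.70 TPM in CYST, 0.147, 1.68 and 2.61 TPM in MAT and 3.16, 3.12 and 4.13 TPM in MAT+COL. All libraries of DAB2 with EGF were below all CYST libraries, and its Log2FC in MAT was -2.38 (SE 0.72, edgeR adjusted p = 0.116, or 0.04 in the blocked fit). GIPC1 and ANKRA2, which also bind megalin, had a Log2FC of 0.64 (SE 0.42) and 0.52 (SE 0.30). CUBN, the gene for cubilin, was under 1 TPM in every library, and AMN, its membrane anchor, had at most 1 count.

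In the list of apical sorting and recycling, beside LGALS4, LGALS3 and MYO5B were higher with the block. LGALS3, the gene for galectin-3, had a Log2FC of 1.54 (SE 0.36, edgeR adjusted p = 0.0706, or 0.00542 in the blocked fit). MYO5B, the motor of recycling endosomes, had a Log2FC of 1.09 (SE 0.26, edgeR adjusted p = 0.0715, or 0.0124 in the blocked fit). Of the 14 genes tested in this list, 10 had a positive value.

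Among 10 polarity genes, 9 had a positive Log2FC, and PARD6B (1.04, SE 0.58), PRKCZ (0.81, SE 0.48) and CRB3 (0.57, SE 0.26) had the largest. None of the 10 was called by edgeR with or without the block, and DESeq2 called 0. An unadjusted p under 0.05 was seen for 0 of the 10 without the block and 4 with it. Of the transcription regulators known from enterocytes, CDX1, CDX2 and GATA4 had 0 counts in all 9 libraries, whereas HNF4A was at 8.93, 16.5 and 3.04 TPM in CYST and 21.2, 30.6 and 11.1 TPM in MAT. HNF4A had a Log2FC of 1.19 (SE 0.53, edgeR adjusted p = 0.256, or 0.0152 in the blocked fit), and ELF3 had 1.03 (SE 0.34). Of the 6 regulators tested, 0 were called without the block and DESeq2 called 1. An unadjusted p under 0.05 was seen for 1 of the 6 without the block and 5 with it. As the share of all genes at an unadjusted p was not counted, these unadjusted counts have no comparison.

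**Figure D5:**
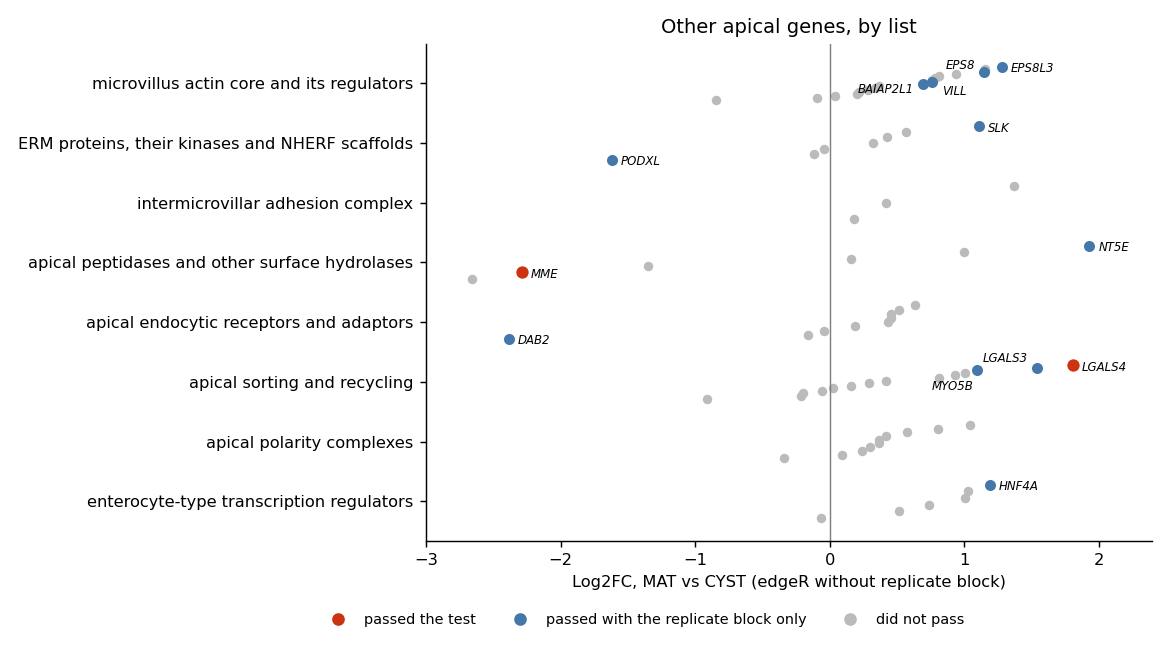
Log2FC of MAT against CYST (horizontal axis, edgeR without the replicate block) for the 73 genes tested in the 8 lists (vertical axis), with LGALS4 and MME, which passed the test, in red, those that passed only with the replicate block in blue and the others in grey. Most points lie to the right of 0, while MME, PODXL and DAB2 lie to the left.

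In MAT+COL against CYST, 2 of the 74 listed genes tested rose, LGALS4 (Log2FC 1.63, SE 0.22, edgeR adjusted p = 0.0292) and EPS8L3, and 0 fell. At an unadjusted p under 0.05, 19 had a positive Log2FC and 4 a negative one. With the block 6 rose, namely EPS8, EPS8L3, VILL, MYO5B, LGALS3 and LGALS4. The shares of all genes called in this comparison were 1.49% without the block and 5.26% with it. Without replicate 1 or 2 of either group edgeR called 0, and without MAT+COL replicate 3 it called 1. MME had a Log2FC of -1.51 (SE 0.35, edgeR adjusted p = 0.07) at 27.5, 26.1 and 24.2 TPM, against 30.4 TPM in the lowest CYST library. Between MAT+COL and MAT, 0 of the 75 listed genes tested had an adjusted p under 0.05, 1 had an unadjusted p under 0.05 without the block and 6 with it, and DESeq2 called 0. The unadjusted counts of both comparisons again have no share of all genes beside them.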

How the data were processed

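Total RNA of 9 cultures of bovine uterine gland fragments was sequenced from libraries made with the SMART-Seq HT PLUS kit. Trimmed reads were aligned by the authors to ARS-UCD2.0 in CLC Genomics Workbench 25.0.1 with default parameters, and the authors deposited raw counts per gene and TPM values of the same libraries. The annotation release and the strand setting are not given in the sources used here. All per-sample columns were used. Groups and replicate numbers were taken from the labels and the names CYST, MAT and MAT+COL from the study. The 10 genes and the gene lists were chosen with earlier results of these data known.

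Counts were analysed in R 4.3.3. For each comparison of 6 libraries, the genes left by filterByExpr (minimum count of 10) were scaled by TMM and compared with the quasi-likelihood test of edgeR 4.0.16 and Benjamini-Hochberg adjustment. Intervals are the Log2FC with 1.96 standard errors to either side. With so few libraries the edgeR test asks for more than 1.96 standard errors at a p of 0.05. The intervals are therefore narrower than that test allows. Log2 CPM had a prior count of 2. Counts are of reads without molecular identifiers, so floors cover counting error only, and a floor of 3 counts was used.

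Same-numbered libraries deviated together from their group means across genes, with correlations of 0.329 to 0.437 between MAT and CYST, 0.278 to 0.350 between MAT+COL and CYST, and 0.471 to 0.687 between MAT+COL and MAT, against at most 0.111 for other pairs. The study also describes its MAT and MAT+COL libraries as grouped by individual animal, so the numbers were taken as pairing. That description does not cover CYST, and the labels do not link the numbers of CYST with those of the other groups. The block in the comparisons with CYST therefore rests on the correlations in these same libraries. The labels do not say that the replicates of a group came from separate animals, and p-values measure the spread between these libraries.

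The genes named were the 10, the genes of each list that passed the test without the block, the 3 of each list with the largest Log2FC in MAT against CYST in either direction, and the 3 most correlated with EZR and MAL. Other genes of the lists were named for a call with the block, a count of 0 or their family, after their values were seen. A gene that this rule names is not reported here. Of the lists, SLC9A3R1, SLC9A3R2, MPP5 and INADL are older symbols of genes found under another name, and PDZD3 and ANXA13 were not found by symbol. Gene spans in RefSeq came from the annotation of the same assembly. Alternatives were DESeq2 1.42.0, RLE size factors, no filter, the replicate block, a fit of all 9 libraries, limma 3.58.1 on log2(TPM + 1) and log2(TPM + 0.1), and leaving out each library. The test was run on simulated data beforehand. Python 3.11.15 and matplotlib 3.10.9 served for the figures.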

Additional observations from a re-analysis of the deposited data

How the results depend on the processing

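In both comparisons with CYST, ANPEP, LRP2, MAL, MYO1A, PDZK1, CDHR2 and ESPN kept their direction under all alternatives run. The number of the 9 genes with an adjusted p under 0.05 was 0 to 4 in MAT against CYST and 0 to 3 in MAT+COL against CYST when 1 library was left out. In MAT against CYST it was 0 without CYST replicate 1, CYST replicate 2 or MAT replicate 1, and 1 without MAT replicate 2. In MAT+COL against CYST it was 0 without replicate 1 or 2 of either group. These fits have fewer libraries, and their Log2FC stayed between 2.596 and 3.14 for MYO1A, 4.74 and 5.73 for MAL, -3.92 and -3.02 for ANPEP, and -3.26 and -2.59 for LRP2 in MAT against CYST. DESeq2 called 6 in both comparisons (9.9% and 11.8% of all genes), and limma on log2(TPM + 1) or log2(TPM + 0.1) called 3, losing LRP2, for which the cause was not tested. With log2(TPM + 1), the Log2FC was -1.94 for LRP2, 4.07 for MAL and 1.41 for CDHR2 in MAT against CYST. In MAT+COL against CYST these values were -1.70, 3.45 and 1.59. With log2(TPM + 0.1), that of LRP2 was -2.68 in MAT and -2.23 in MAT+COL against CYST. Of the listed genes in MAT against CYST, where edgeR called 2, DESeq2 called 12, the replicate block 13 and the fit of all 9 libraries 5, with 0 to 6 when 1 library was left out (6 without CYST replicate 3). In MAT+COL against CYST, where edgeR also called 2, these were 15, 6 and 4, with 1 under either limma fit and 0 to 3 when 1 library was left out. For the limma fits, the fit of all 9 libraries and the fits without 1 library, the share of all genes called was not counted.

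When 1 library was left out, the Log2FC of VIL1 in MAT against CYST ranged from -0.48 to 0.066 and that of EZR in MAT+COL against CYST from -0.083 to 0.65. For collagen, where no gene was called under any alternative, these ranges were -0.22 to 0.12 for MYO1A, -0.30 to 0.28 for VIL1, -0.71 to 0.053 for EZR, -0.53 to 0.49 for ANPEP, -0.19 to 0.71 for PDZK1, -1.02 to 1.26 for CDHR2 and -0.40 to 0.46 for ESPN. The sign there also turned for MYO1A under both limma fits (0.036 in each), for VIL1 with the replicate block (0.036) and limma (0.11 with a pseudocount of 1, 0.12 with 0.1), and for CDHR2 with the block (0.27) and limma (0.18 and 0.45). The replicate block changed no other call of the 10 genes than those of PDZK1 and CDHR2. CDHR5, CDHR2 and MAL had at most 13 counts in any CYST library, which limits the precision of their values.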
